A study of Mus musculus with 8 samples.

Results

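Cxcl9, Cxcl10 and Cxcl11 encode the 3 chemokines that signal through the receptor CXCR3, and their mRNA levels are described here in mouse macrophages given saline, lipopolysaccharide (LPS), interferon beta (IFNb) or both stimuli. The genes were chosen by symbol, and the TPM of all Ensembl transcripts of each gene was added up, which gave 3 of the 30284 genes with a value. TPM corrects for transcript length, so levels can be set side by side between genes of a library. It has the same total in each library, so between libraries a level is a share of that total and depends on the other genes. All mice were male, 7 weeks old and of the C57BL6 background, with no genetic change named in the labels. Stimuli were given into the peritoneum, and the cells are labelled macrophages. The 4 groups, with 2 libraries each, are saline for 4 h (Saline), LPS for 4 h (LPS), IFNb for 4 h (IFNb), and IFNb for 4 h with LPS for the next 4 h (LPS+IFNb). LPS comes from the outer membrane of bacteria and is sensed by TLR4, and IFNb is a type I interferon. Cells of the LPS+IFNb group were therefore taken 8 h after IFNb, and no group had IFNb and then saline, so time since IFNb and addition of LPS cannot be told apart. The labels are silent on whether a group's libraries stem from separate mice, so p-values reflect spread between libraries that could be technical replicates.

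CXCR3 is carried mainly by activated T cells and natural killer cells, and its ligands draw those cells into inflamed tissue. Interferon gamma, acting in part through IRF1, is the classic inducer of all 3 ligands. CXCL10 is also readily induced by type I interferon, through a complex with IRF9 that binds interferon-stimulated response elements (ISRE), and by TLR4, whose TRIF arm activates IRF3 and whose signalling also releases NF-kB. Mice of the C57BL/6 lineage are known to carry a frameshift in Cxcl11, so that its mRNA is made without a functional protein.

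The 3 genes lie next to each other on chromosome 5 of the mouse genome, all on the minus strand, within 44.1 kb of build GRCm38 (the mm10 build). Cxcl9 (ENSMUSG00000029417) spans chr5:92321347-92328079, Cxcl10 (ENSMUSG00000034855) spans chr5:92346638-92348889, and Cxcl11 (ENSMUSG00000060183) spans chr5:92359544-92365485. GENCODE M21 types the first pair as protein coding and Cxcl11 as a polymorphic pseudogene. Promoter sequence was given in RefSeq for 2 of the 3 members, Cxcl9 and Cxcl10, and the 250 bases before each start are shown with their matches to motifs for the pathways of the 2 stimuli. They run 5′ to 3′ on the gene's own strand, from RefSeq on GRCm38.p6, at chr5:92328080-92328329 for Cxcl9 and chr5:92348890-92349139 for Cxcl10. Capitals mark matches to an ISRE core and, in Cxcl10, to the NF-kB consensus.
Cxcl9: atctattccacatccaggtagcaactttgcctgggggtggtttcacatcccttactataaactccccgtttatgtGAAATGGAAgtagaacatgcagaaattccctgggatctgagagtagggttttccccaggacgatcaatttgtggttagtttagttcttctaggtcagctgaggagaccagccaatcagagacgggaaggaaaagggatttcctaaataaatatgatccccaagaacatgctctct
Cxcl10: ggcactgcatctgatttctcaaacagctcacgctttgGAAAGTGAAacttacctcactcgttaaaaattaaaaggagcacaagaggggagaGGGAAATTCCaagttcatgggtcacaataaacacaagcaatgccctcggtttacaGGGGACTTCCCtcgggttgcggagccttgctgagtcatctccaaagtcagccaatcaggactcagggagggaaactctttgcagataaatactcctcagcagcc
Positions count back from the base before the gene's start, which is -1. Both strands were searched for GAAANNGAA (ISRE core), TTCNNNGAA (the gamma-activated site) and GGANTTTCC (NF-kB core), where N is any base. The NF-kB consensus GGGRNNYYCC (R for A or G, Y for C or T) overlaps the NF-kB core and was added after the sequences had been seen. In Cxcl9 the ISRE core matched from -175 to -167, and in Cxcl10 from -213 to -205. The NF-kB core matched in Cxcl10 from -158 to -150 on the opposite strand. The NF-kB consensus matched in Cxcl10 from -159 to -150 and, in overlapping frames, from -104 to -94, and had no match in the Cxcl9 window. Only exact matches were counted, so close variants in the Cxcl9 window are missed and it cannot be said to lack NF-kB sites. Neither window held a match to the gamma-activated site. Among all 32851 RefSeq promoter windows of this length, 7.13% held the ISRE core, 7.02% the gamma-activated site, 1.07% the NF-kB core and 7.25% the NF-kB consensus. The ISRE core and the NF-kB consensus occurred together in 0.362% of windows, Cxcl10 among them. Since the consensus was added with the Cxcl10 sequence known, this share does not measure how unusual Cxcl10 is. These matches describe letters in the window and were not tested as binding sites.

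Macrophage markers were present in every group, with 10 of 11 listed markers at 1 TPM or more in both libraries, among them Lyz2 and Cd68, while Gata6 and Timd4, which mark resident large peritoneal macrophages, lay between 0.427 and 3.38 TPM. The summed TPM of the 11 macrophage markers ran from 19205 to 21909 in Saline and from 14655 to 15029 in LPS+IFNb. Lyz2 alone averaged 16450 TPM in Saline and 10210 in LPS+IFNb. Markers of monocytes added up to 129 to 153 TPM in Saline, 185 to 250.1 in LPS, 656 to 737 in IFNb and 562 to 580 in LPS+IFNb, with 5 of 5 at 1 TPM or more throughout. These 5 did not move together. From Saline to IFNb mean Plac8 went from 22.6 to 346.4 TPM, Vcan from 3.81 to 161.7 and Ly6c2 from 7.92 to 88.5. Ccr2 went from 32.8 to 23.1, with 4.80 in LPS, and F13a1 from 73.9 to 76.8. Markers of dendritic cells added up to 9.78 to 11.2 TPM in Saline and 21 to 23 in LPS+IFNb. In such bulk libraries a change in the number of cells of a type and a change in RNA per cell cannot be told apart. TPM has a fixed total, so that a gain of some genes lowers the rest, and rescaling by median ratios shifted the median gene upward on the log2 scale, by 0.40 for LPS and 0.34 for IFNb when each was set against saline. The shift was 0.62 for both stimuli together against saline, 0.20 for the same group against LPS alone and 0.28 against IFNb alone. Changes below are differences in log2(TPM + 1) ± SE from limma, a scale that understates the change of low genes, and a gene is said to rise or fall at a Benjamini-Hochberg adjusted p under 0.05 over the 13009 genes tested.

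Cxcl10 was the dominant CXCR3 ligand, going from a low level to among the most abundant mRNAs with either stimulus. It stood at 1.95 and 2.31 TPM in the Saline libraries, 2901 and 3206 in LPS, 1848 and 1610.1 in IFNb, and 5240.5 and 4489.9 in LPS+IFNb. No groups overlapped, and the order was Saline, IFNb, LPS and LPS+IFNb. Among all genes of a library it ranked 10747 and 10917 in Saline, 37 and 38 in LPS, 63 and 76 in IFNb, and 18 and 22 in LPS+IFNb. Mean levels were 2.13 ± 0.256 TPM (SD, n = 2) in Saline, 3053 ± 215 in LPS, 1729 ± 168 in IFNb and 4865 ± 531 in LPS+IFNb. The mean was thus 1431 times that of Saline with LPS and 810.5 times with IFNb. Against saline Cxcl10 rose by 9.93 ± 0.12 with LPS (adjusted p = 2.04e-07), the largest rise of the genes tested, and by 9.11 ± 0.12 with IFNb (adjusted p = 1.71e-07). With both stimuli it rose by 10.60 ± 0.12 against saline (adjusted p = 8.25e-08). LPS gave more Cxcl10 than IFNb at 4 h, by 0.82 ± 0.12 (adjusted p = 0.00208).

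**Figure D1:**
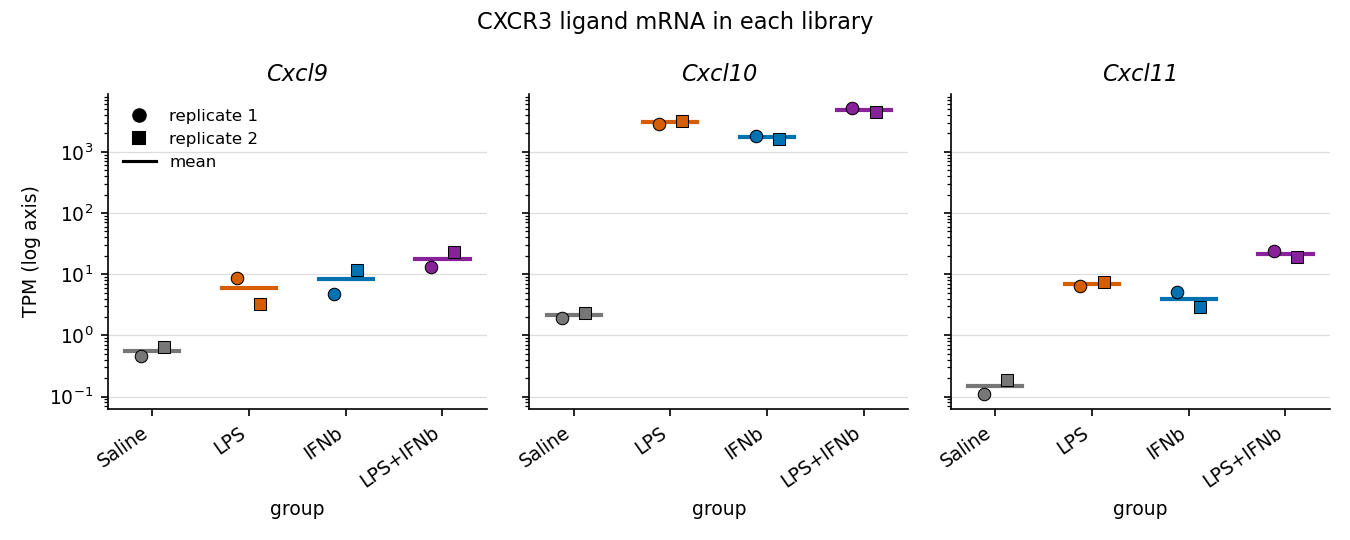
TPM on a log axis of Cxcl9, Cxcl10 and Cxcl11 in each of the 8 libraries by group, with circles for replicate 1, squares for replicate 2 and a line for the group mean. Cxcl10 lies near 2 TPM in Saline and between 1610.1 and 5240.5 TPM in the other groups, while Cxcl9 and Cxcl11 stay under 25 TPM and the Cxcl9 libraries of each stimulated group lie farther apart than those of the other ligands.

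Cxcl11, the third ligand, kept the same order of groups at far lower levels. The Saline libraries held 0.108 and 0.189 TPM, the LPS libraries 6.51 and 7.41, the IFNb libraries 5.08 and 2.93, and the LPS+IFNb libraries 24.3 and 18.9. Again no groups overlapped, but the higher IFNb library lay close to the lower LPS library. Mean levels were 0.149 ± 0.0570 TPM (SD, n = 2) in Saline, 6.96 ± 0.639 in LPS, 4.00 ± 1.52 in IFNb and 21.6 ± 3.85 in LPS+IFNb. Cxcl11 rose against saline by 2.79 ± 0.24 with LPS (adjusted p = 0.000218), by 2.09 ± 0.24 with IFNb (adjusted p = 0.000757) and by 4.29 ± 0.24 with both (adjusted p = 2.05e-05). LPS and IFNb did not differ past the threshold, with a difference of 0.70 ± 0.24 (adjusted p = 0.0572, unadjusted 95% interval 0.13 to 1.27), which passed without IFNb replicate 1 (1.02, adjusted p = 0.0224) and under 4 other settings given at the end.

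Cxcl9, the ligand most tied to interferon gamma, rose with each stimulus and in the stimulated groups varied most of the 3 between libraries. Its levels were 0.465 and 0.637 TPM in Saline, 8.56 and 3.27 in LPS, 4.72 and 11.9 in IFNb, and 12.99 and 22.7 in LPS+IFNb. The LPS and IFNb libraries overlapped, while all 6 stimulated libraries lay above both Saline libraries and both LPS+IFNb libraries lay above all others. Within a group the higher library was 2.62 times the lower in LPS and 2.51 times in IFNb, against 1.10 and 1.15 times for Cxcl10. Means were 0.551 ± 0.122 TPM (SD, n = 2) in Saline, 5.92 ± 3.74 in LPS, 8.30 ± 5.06 in IFNb and 17.9 ± 6.88 in LPS+IFNb. Against saline Cxcl9 rose by 2.05 ± 0.52 with LPS (adjusted p = 0.0155), by 2.47 ± 0.52 with IFNb (adjusted p = 0.00803) and by 3.56 ± 0.52 with both (adjusted p = 0.000955). The LPS call was lost without LPS replicate 1 (1.46, adjusted p = 0.079) and without Saline replicate 1 (1.97, adjusted p = 0.0574). LPS and IFNb differed by -0.43 ± 0.52 (adjusted p = 0.566, unadjusted 95% interval -1.66 to 0.81), so their order was not resolved. Without replicate 2 of either group the sign turned, to 0.16.

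As background to these rises, 12.8% of the 13009 genes tested rose and 41.3% fell with LPS (20.2% and 16.7% after median-ratio scaling), and 13% rose and 38.6% fell with IFNb (18.0% and 14.1% after scaling). With both stimuli 15.2% rose and 54.1% fell against saline (27.0% and 24.8% after scaling), and 16.6% of genes were higher and 22.1% lower in LPS than in IFNb (17.6% and 19.3% after scaling). Cxcl9 and Cxcl11 were under 1 TPM in both Saline libraries and entered the test through the stimulated groups alone, so their joint rise over saline is not counted as support.

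Some marker sums kept one direction relative to Cxcl9 between the libraries of the stimulated groups, and others did not. The library with more Cxcl9 was LPS replicate 1, IFNb replicate 2 and LPS+IFNb replicate 2. In each of these 3 the class II invariant chain gene Cd74 was also the higher, at 797 against 633 TPM in LPS, 712.5 against 517 in IFNb and 840.2 against 624 in LPS+IFNb. The same 3 libraries had the lower summed TPM of 6 mesothelial markers, at 3.77 against 11.2 in LPS, 4.55 against 12.3 in IFNb and 3.2 against 10.01 in LPS+IFNb. Sums over 8 neutrophil markers were lower there too, at 191 against 284, 153 against 229.9 and 140.0 against 219 TPM in the same order, and so were sums over 6 mast cell markers, at 46.1 against 69.7, 42.9 against 53.7 and 41.2 against 64.1. B cell marker sums were higher there, at 85.1 against 74.1, 90.7 against 88.9 and 84.8 against 66.6 TPM. Monocyte sums were lower in the LPS library with more Cxcl9, at 185 against 250.1, and higher in the other two, at 737 against 656 and 580 against 562. T and NK cell sums likewise ran 17.0 against 17.4, 28.5 against 18.0 and 24.5 against 15.6, and dendritic cell sums 12.4 against 12.7, 17.5 against 15.3 and 23 against 21. Among the defining neutrophil markers, both libraries were listed at 0 for Ly6g in LPS, for Ngp and Camp in IFNb and for Ngp in LPS+IFNb, while Ly6g was at 0.746 and 0.662 TPM in IFNb. Saline went the other way for Cxcl9, whose higher library, replicate 2, had the higher mesothelial sum, 14.0 against 6.69 TPM, and the lower Cd74, 593 against 682 TPM. Cxcl10 too was lower in the 3 stimulated libraries with more Cxcl9, at 2901 against 3206, 1610 against 1848 and 4490 against 5240 TPM. Cxcl11 was lower there as well, at 6.51 against 7.41, 2.93 against 5.08 and 18.9 against 24.3 TPM. In Saline both were higher in replicate 2, at 2.31 against 1.95 and 0.189 against 0.108 TPM. How many of all genes kept one direction over these libraries was not counted. The part of these cell markers in the Cxcl9 values was not tested.

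**Figure D2:**
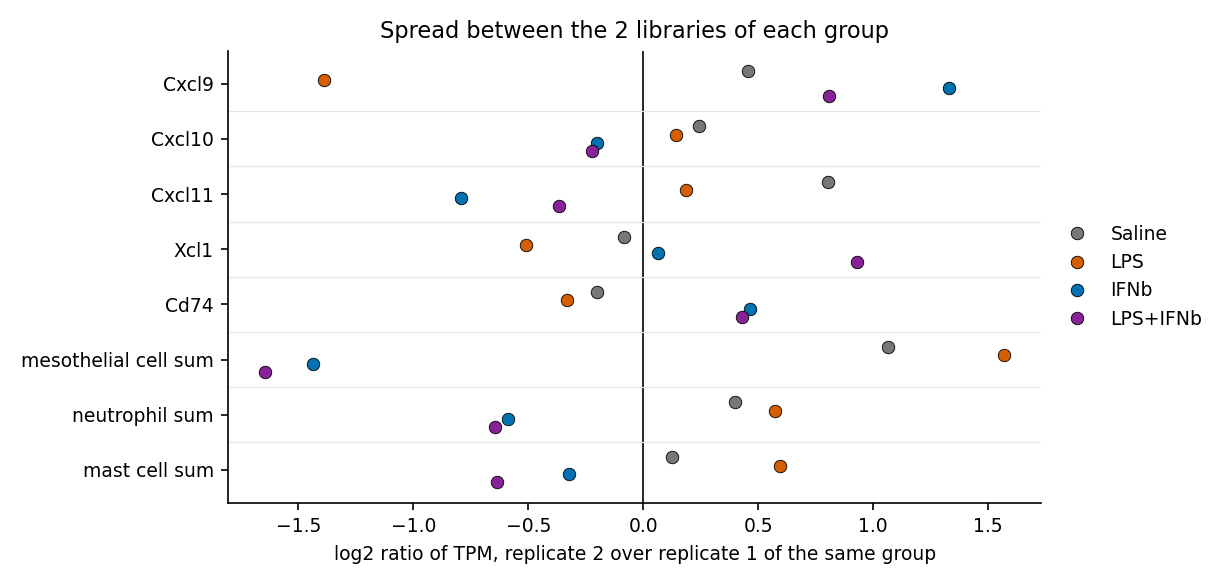
Log2 ratio of TPM between replicate 2 and replicate 1 of each group, for the 3 ligands, Xcl1, Cd74 and the summed markers of 3 cell types, with one point per group. The 3 stimulated groups lie on opposite sides of 0 for Cxcl9 and for the mesothelial, neutrophil and mast cell sums, and Cxcl10 stays nearest to 0 of the ligands.

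Pretreatment with IFNb raised the Cxcl10 and Cxcl11 reached with LPS, and Cxcl9 by an amount that did not pass the test. LPS+IFNb exceeded LPS by 0.67 ± 0.12 for Cxcl10 (adjusted p = 0.00700) and by 1.50 ± 0.24 for Cxcl11 (adjusted p = 0.00453), or 1.59 and 3.11 times the LPS mean. Cxcl9 differed by 1.51 ± 0.52, or 3.02 times (adjusted p = 0.0634, unadjusted 95% interval 0.27 to 2.75). In this comparison 2 of the 3 ligands were thus among the genes that rose, against 10.8% of all genes tested, with 24.1% falling (14.5% and 9.98% after median-ratio scaling). The Cxcl9 difference passed after median-ratio scaling, at 1.76 (adjusted p = 0.0452), and without LPS replicate 1, at 2.09 (adjusted p = 0.0475).

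Set against IFNb alone, LPS+IFNb held more Cxcl10, by 1.49 ± 0.12 (adjusted p = 0.000399), and more Cxcl11, by 2.20 ± 0.24 (adjusted p = 0.00118). These are 2.81 and 5.40 times the IFNb mean. Cxcl9 differed by 1.09 ± 0.52, or 2.15 times (adjusted p = 0.140, unadjusted 95% interval -0.15 to 2.33). Again 2 of the 3 ligands rose, against 8.76% of all genes tested, with 30.5% falling (12.9% and 10.7% after scaling). The comparison with LPS alone and the one with IFNb alone share the LPS+IFNb libraries.

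**Figure D3:**
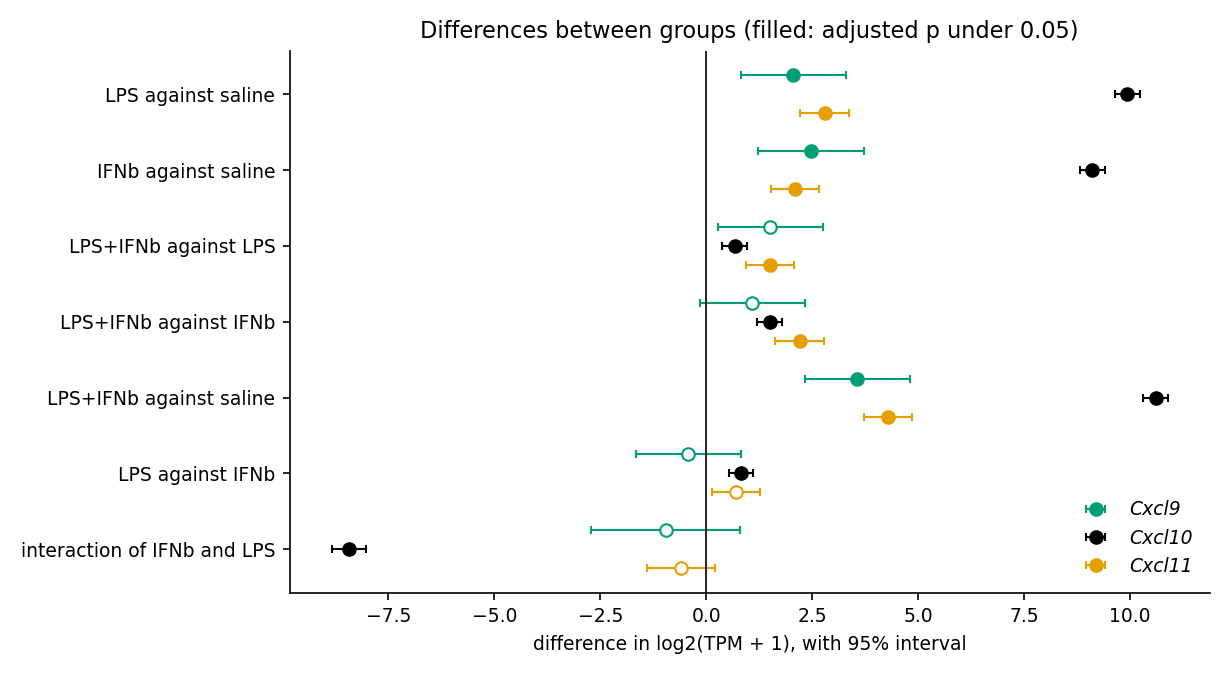
Differences in log2(TPM + 1) between groups for each ligand, with unadjusted 95% intervals, filled where the adjusted p over all genes tested was under 0.05. Cxcl10 stands apart in the comparisons with saline, at 9.11 to 10.60, and in the interaction at -8.44, while in the comparisons of LPS+IFNb with LPS or IFNb alone the 3 ligands lie between 0.67 and 2.20.

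The combination of the 2 stimuli was set beside each alone on 2 scales. In TPM, the LPS+IFNb mean of Cxcl10 was 4865, and LPS plus IFNb minus Saline gives 4780, a ratio of 1.02. For Cxcl11 the LPS+IFNb mean of 21.6 TPM was 2.00 times the sum of 10.8, and for Cxcl9 17.9 TPM was 1.31 times the sum of 13.7. These ratios of means rest on 2 libraries a group and carry no test. On the log2 scale, the interaction sets the difference between LPS+IFNb and IFNb against that between LPS and Saline. The former also spans the later time since IFNb, so the interaction is not a measure of LPS alone. For Cxcl10 the interaction was -8.44 ± 0.17 (adjusted p = 4.58e-06), the lowest of the 13009 genes. LPS exceeded Saline by 9.93, and LPS+IFNb exceeded IFNb by 1.49. For Cxcl9 the interaction was -0.96 ± 0.73 (adjusted p = 0.498, unadjusted 95% interval -2.71 to 0.79) and for Cxcl11 -0.59 ± 0.34 (adjusted p = 0.355, unadjusted 95% interval -1.40 to 0.21). With a pseudocount of 0.1 in place of 1 the Cxcl11 interaction was -2.40 (adjusted p = 0.0281), so its call turns on how the values under 1 TPM in Saline are treated. Across all genes tested 4.45% had a negative interaction and 3.51% a positive one (4.60% and 1.71% after scaling).

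Most of the ligand mRNA was Cxcl10 in every library. Cxcl10 formed 77.3% and 73.7% of the summed TPM of the 3 ligands in the Saline libraries and between 99.08% and 99.67% in the 6 stimulated libraries. Ratios of Cxcl10 to Cxcl11 were 18.0 and 12.3 in Saline, 445.7 and 432.5 in LPS, 364.2 and 549.3 in IFNb, and 215.3 and 237.6 in LPS+IFNb. The lowest ratios among stimulated libraries were thus the 2 with both stimuli, where Cxcl11 had gained more than Cxcl10. Ratios of Cxcl10 to Cxcl9 were 4.20 and 3.63 in Saline, 338.8 and 979.1 in LPS, 391.3 and 135.6 in IFNb, and 403.4 and 197.6 in LPS+IFNb, with the stimulated groups overlapping. The Saline ratios rest on values near or under 1 TPM, whose precision is unknown because TPM keeps no read number.

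Transcripts were listed separately for Cxcl10 and Cxcl11. Of Cxcl10, the spliced transcript Cxcl10-201 (4 exons, 1094 bases) held all of the TPM in Saline and 94.3% to 97.7% in the stimulated libraries. A second coding transcript, Cxcl10-202, was listed at 0 in Saline, at 65.8 and 75.9 TPM in LPS, 23.3 and 23.96 in IFNb, and 48.4 and 47.2 in LPS+IFNb. The retained-intron transcript Cxcl10-203 was listed at 0 in Saline, at 80.9 and 107.3 TPM in LPS, 32.9 and 22.3 in IFNb, and 70.2 and 62.7 in LPS+IFNb. Its share of Cxcl10 was 2.79% and 3.35% in LPS and 1.34% to 1.78% in the other stimulated libraries, so the LPS libraries were the highest. Of Cxcl11, Cxcl11-201 held 96.7% or more in every library. Assignment of shared reads among transcripts of a gene is an estimate with an error that TPM does not show.

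Other genes share bases with 2 of the ligands. An Art3 transcript on the plus strand overlaps 133 bases of the 3′ end of Cxcl10-201, and the pseudogene Gm2673 overlaps 1582 bases of Cxcl11-202. Whether strand was used in assigning reads is not given in the sources used here, so reads from these overlaps cannot be told apart between partners. Art3, which encodes an ADP-ribosyltransferase family protein, had 0.405 and 0.0762 TPM in Saline and at most 3.15 TPM elsewhere.

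The receptor gene Cxcr3 was low in all libraries, at 2.16 and 1.69 TPM in Saline, 0.522 and 0.540 in LPS, 0.133 and 0.503 in IFNb, and 0.133 and 0.362 in LPS+IFNb. The Saline libraries were the 2 highest, both LPS libraries lay above those of IFNb and LPS+IFNb, and the last pair of groups overlapped. Cxcr3 reached 1 TPM in Saline alone and entered the test through that group, so a fall from it was favoured by the filter. It fell with LPS by 0.93 ± 0.22 on the log2 scale (adjusted p = 0.0129) and with IFNb by 1.16 ± 0.22 (adjusted p = 0.00596). After median-ratio scaling the LPS value was -0.66 (adjusted p = 0.0761) and the IFNb value -0.92 (adjusted p = 0.0283). Sums over 11 T and NK cell markers were 33.2 to 38.9 TPM in Saline and 15.6 to 28.5 in stimulated libraries. Of the 8 of these markers that were tested, 1 fell with LPS, Cd28, with a list median of -0.35 against -0.38 over all genes, and with IFNb Cd28 and Cd3e fell and Gzma rose. Gzma, a granzyme gene of NK and cytotoxic T cells, was at 1.58 and 1.58 TPM in Saline, 1.65 and 1.88 in LPS, 6.88 and 8.18 in IFNb, and 6.90 and 9.87 in LPS+IFNb. Sums over 7 B cell markers ran from 148 to 157 in Saline and from 66.6 to 90.7 elsewhere. Cd22 alone averaged 85.6 TPM in Saline, 38.1 in LPS and 41.3 in IFNb. Of the 7 markers 3 fell and none rose with LPS, with a list median of -0.36 against -0.38 over all genes. With IFNb 3 fell and none rose (-0.54 against -0.37), where 38.6% of all genes tested fell, against 41.3% with LPS. The part of these cells in the Cxcr3 change was not tested.

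Dpp4, the peptidase that trims and inactivates CXCR3 ligands, fell with LPS by 1.07 ± 0.24 (adjusted p = 0.00966) and was higher in LPS+IFNb than in LPS by 1.20 ± 0.24 (adjusted p = 0.0103). Its levels were 4.65 and 7.95 TPM in Saline, 2.79 and 2.01 in LPS, 7.86 and 7.73 in IFNb, and 7.27 and 6.33 in LPS+IFNb, with LPS below all others. Of the 10 listed genes for the receptor, atypical receptors and ligand processing, 6 were tested, and 3 fell and none rose with LPS (1 and 1 after scaling), where 41.3% of all genes tested fell; the list median was -0.25 against -0.38 over all genes. With IFNb 1 fell and none rose (1 and 1 after scaling), where 38.6% of all genes tested fell. The third to fall was the aminopeptidase Anpep, by 0.56 ± 0.14 (adjusted p = 0.0136; -0.10 after scaling, adjusted p = 0.525). The atypical receptors Ackr1, Ackr2, Ackr3 and Ackr4 did not reach the level needed for testing.

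Ifnb1 and Ifng were both highest in LPS+IFNb. Ifnb1, at 0 in each Saline library, was listed at 10.9 and 10.01 TPM in LPS, 0.229 and 0.101 in IFNb, and 157.6 and 59.5 in LPS+IFNb. LPS+IFNb thus lay above every other group, with a wide gap between its libraries. Ifnb1 rose with LPS by 3.52 ± 0.40 (adjusted p = 0.000697) and did not pass with IFNb (0.22 ± 0.40, adjusted p = 0.68). LPS+IFNb exceeded LPS by 3.10 ± 0.40 (adjusted p = 0.00224). Ifng, the gene for interferon gamma, stood at 0.126 and 0.0597 TPM in Saline, 1.11 and 1.81 in LPS, 0.651 and 1.04 in IFNb, and 5.41 and 6.62 in LPS+IFNb. It was highest with both stimuli, by 1.52 ± 0.22 over LPS (adjusted p = 0.00318) and 1.93 ± 0.22 over IFNb (adjusted p = 0.00142). Ifnb1 and Ifng were under 1 TPM in Saline and entered the test through stimulated groups alone, so a rise over saline was favoured by the filter. T and NK cells are the known makers of interferon gamma, and their markers, whose values are given above, did not move one way; their part in the Ifng change was not tested. Ifngr1, the ligand-binding chain of the interferon gamma receptor, fell with IFNb by 2.28 ± 0.15 (adjusted p = 7.16e-05). Among 9 listed interferon and receptor genes 6 were tested, of which 4 rose with LPS, 1 rose and 2 fell with IFNb (2 and 1 after scaling), and 2 rose and 1 fell in LPS+IFNb against LPS. Their medians were 1.07, 0.02 and -0.03 in this order, against -0.38, -0.37 and -0.22 over all genes. In the same order 12.8%, 13% and 10.8% of all genes tested rose and 41.3%, 38.6% and 24.1% fell.

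The transcription factor gene Irf1 was at 37.4 and 35.5 TPM in Saline, 596 and 523 in LPS, 368 and 389.8 in IFNb, and 558 and 651.5 in LPS+IFNb, with LPS and LPS+IFNb overlapping. The myeloid factor Irf8 was at 110.2 and 129 TPM in Saline, 146 and 102 in LPS, 121 and 149 in IFNb, and 311 and 472.5 in LPS+IFNb. Only the last group stood apart for Irf8, by 1.64 ± 0.25 over LPS (adjusted p = 0.00401) and 1.51 ± 0.25 over IFNb (adjusted p = 0.00542). Of 13 JAK, STAT and IRF genes, 9 rose and none fell with LPS, with a list median of 0.91 against -0.38 over all genes tested. With IFNb 10 rose and none fell (list median 1.53 against -0.37). In LPS+IFNb against LPS 6 rose and 1 fell (0.34 against -0.22), the one that fell being Irf3, by 1.55 ± 0.26 (adjusted p = 0.00577). Against IFNb 4 rose and 3 fell (5 and 1 after scaling). Over all genes tested, 12.8% rose and 41.3% fell with LPS, and 13% and 38.6% with IFNb. The shares were 10.8% and 24.1% in LPS+IFNb against LPS, and 8.76% and 30.5% against IFNb.

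**Figure D4:**
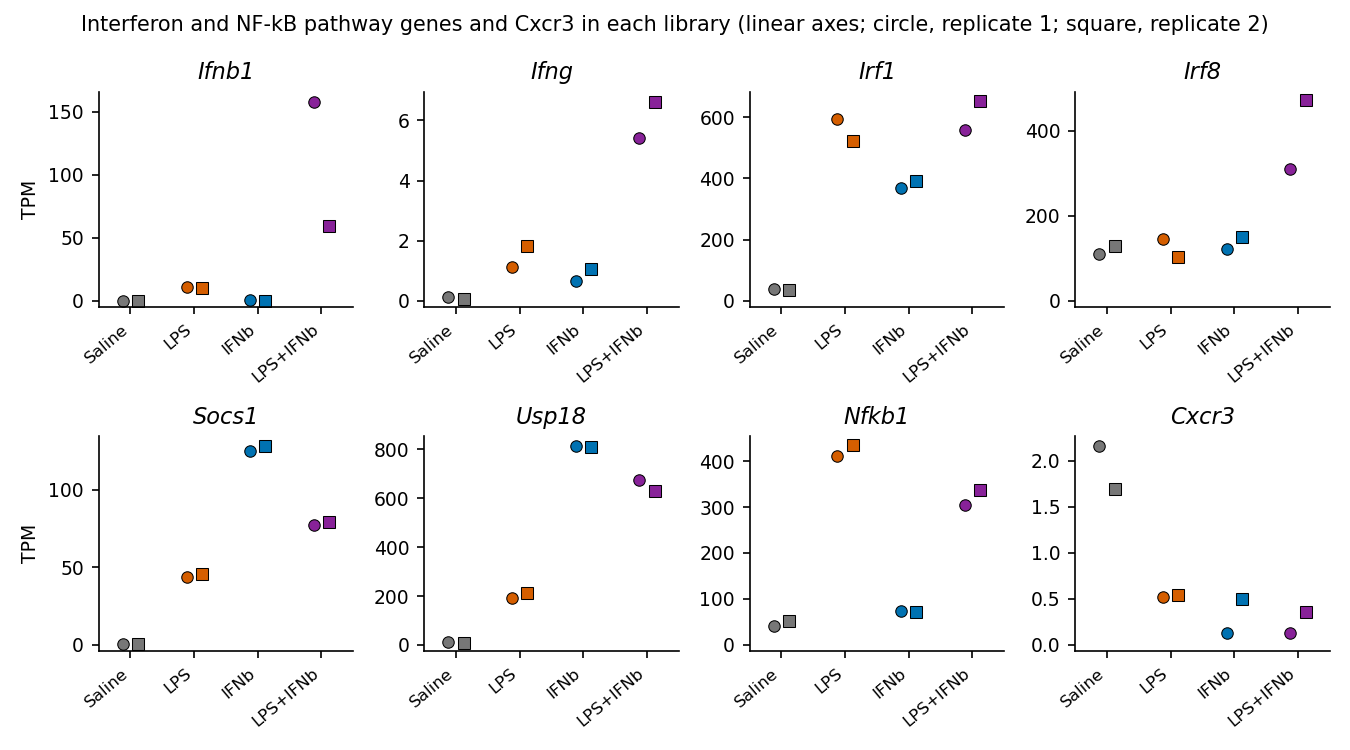
TPM on linear axes of Ifnb1, Ifng, Irf1, Irf8, Socs1, Usp18, Nfkb1 and Cxcr3 in the 8 libraries, with circles for replicate 1 and squares for replicate 2. Ifnb1, Ifng and Irf8 are highest in LPS+IFNb, Socs1 and Usp18 in IFNb, Nfkb1 in LPS and Cxcr3 in Saline.

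Most NF-kB genes rose with LPS. Of 10 listed subunits and activators, 8 rose and 1 fell with LPS (8 and 0 after scaling), with a list median of 2.17 against -0.38 over all genes. With IFNb 2 rose, Nfkb1 and Nfkbiz, and 4 fell, none of which fell after scaling. The list median with IFNb was -0.42 against -0.37 over all genes, of which 38.6% fell. Nfkbiz, an inducible nuclear cofactor of NF-kB, rose by 5.88 ± 0.15 with LPS (adjusted p = 1.56e-06) and by 0.76 ± 0.15 with IFNb (adjusted p = 0.00705). In LPS+IFNb against LPS none rose and 3 fell, Ikbkb, Chuk and Nfkb1 (1 after scaling), and against IFNb 7 rose and 1 fell (8 and 0 after scaling). List medians were -0.34 against -0.22 over all genes in the former and 2.10 against -0.30 in the latter. Over all genes tested, 10.8% rose and 24.1% fell in the former, and 8.76% rose and 30.5% fell in the latter. In the TLR4 to TRIF arm, 6 of 10 genes rose and 2 fell with LPS (6 and 1 after scaling), with a list median of 0.57 against -0.38 over all genes. With LPS 12.8% of all genes tested rose and 41.3% fell. Tlr4 itself fell by 1.80 ± 0.13 with LPS (adjusted p = 0.00013) and its co-receptor Cd14 rose by 4.58 ± 0.25 (adjusted p = 3.07e-05). In LPS+IFNb against LPS, Tlr4 rose by 0.99 ± 0.13 (adjusted p = 0.00256) and Cd14 fell by 1.47 ± 0.25 (adjusted p = 0.00561).

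Most feedback inhibitors rose with LPS. Among 13 listed, 11 rose and 2 fell with LPS (11 and 1 after scaling), 7 rose and 2 fell with IFNb (10 and 1), and 5 rose and 2 fell in LPS+IFNb against LPS (5 and 0). List medians were 2.87, 0.50 and 0.17 in this order, against -0.38, -0.37 and -0.22 over all genes. Of all genes tested 12.8%, 13% and 10.8% rose and 41.3%, 38.6% and 24.1% fell. In LPS+IFNb against IFNb 8 rose and 3 fell (8 and 1), with a list median of 1.46 against -0.30. Socs1 was among those that fell, by 0.69 ± 0.17 (adjusted p = 0.0199, and -0.36 after scaling, adjusted p = 0.113). Socs1, which blocks JAK kinases, was at 0.344 and 0.936 TPM in Saline, 43.8 and 45.5 in LPS, 125 and 128 in IFNb, and 77.4 and 79.0 in LPS+IFNb, with no overlap between groups. It entered the test through stimulated groups alone, so its rise over saline was favoured by the filter. Usp18, which restrains the type I interferon receptor, rose by 4.29 ± 0.10 with LPS (adjusted p = 1.3e-06) and 6.29 ± 0.10 with IFNb (adjusted p = 3.08e-07). Nfkbia, the NF-kB inhibitor, rose by 4.94 ± 0.12 with LPS (adjusted p = 1.39e-06), and in LPS+IFNb was lower than in LPS by 0.56 ± 0.12 (adjusted p = 0.0148; -0.30 after scaling, adjusted p = 0.138). Irf2bp2, a corepressor of IRF2, fell by 3.22 ± 0.22 with LPS (adjusted p = 8.68e-05) and 1.64 ± 0.22 with IFNb (adjusted p = 0.0014).

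Genes known for strong induction by interferon gamma divided into those that rose with the stimuli and those that did not. Of 16 listed, 10 rose with LPS (list median 3.29) and 11 with IFNb (3.53), and none fell. Some of the 16, among them Nos2, Iigp1 and Socs1, were under 1 TPM in both Saline libraries. They entered the test through stimulated groups alone, so their rise over saline was favoured by the filter. In LPS+IFNb against LPS 10 rose and none fell, with a list median of 0.72 against -0.22 over all genes, and against IFNb 4 rose and 4 fell (4 and 0 after scaling). Those that fell there included Cd274, Iigp1 and Socs1, whereas Cxcl10 and Cxcl11 rose. Over all genes tested, 12.8% rose and 41.3% fell with LPS, and 13% and 38.6% with IFNb. The shares were 10.8% and 24.1% in LPS+IFNb against LPS, and 8.76% and 30.5% against IFNb. The GTPase gene Gbp5 rose by 7.33 ± 0.08 with LPS (adjusted p = 1.83e-07) and 6.98 ± 0.08 with IFNb (adjusted p = 9.85e-08). Nos2, the inducible nitric oxide synthase gene, was at 21.9 and 45.3 TPM in LPS, 11.04 and 7.92 in IFNb, and 244 and 274.5 in LPS+IFNb. The class II transactivator Ciita stayed between 1.82 and 4.82 TPM in all 8 libraries with overlap among the 4 groups.

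Of 11 other chemokines that draw T and NK cells, 7 were tested, and all 7 rose with LPS (list median 3.88 against -0.38), and 4 rose and 2 fell with IFNb (4 and 0 after scaling). Over all genes tested, 12.8% rose with LPS, and 13% rose and 38.6% fell with IFNb. Ccl17 and Xcl1 were under 1 TPM in both Saline libraries and entered the test through stimulated groups alone. Their rise over saline was thus favoured by the filter. In LPS+IFNb against LPS 1 rose and 4 fell (1 and 2 after scaling), whereas Cxcl10 and Cxcl11 rose in it. The list median there was -0.53 against -0.22 over all genes. Ccl5 was at 46.2 and 45.6 TPM in Saline, 2887 and 2741 in LPS, 87.3 and 86.8 in IFNb, and 2350 and 2549 in LPS+IFNb. Xcl1, a ligand for cross-presenting dendritic cells, was the 1 that rose, by 1.36 ± 0.29 (adjusted p = 0.0137). The neutrophil-attracting chemokine Cxcl1 rose by 8.50 ± 0.19 with LPS (adjusted p = 1.1e-06), and LPS+IFNb was lower than LPS by 1.52 ± 0.19 (adjusted p = 0.00182). Cxcl3 was lower still in LPS+IFNb against LPS, having dropped by 4.01 ± 0.26 (adjusted p = 0.000196). Of the 8 tested among 12 other CXC chemokines, 6 rose with LPS, none with IFNb, and in LPS+IFNb against LPS none rose and 5 fell (3 after scaling). In that last comparison 10.8% of all genes tested rose and 24.1% fell, and the list median was -0.96 against -0.22. Of the 8 tested, Cxcl5 was under 1 TPM in both Saline libraries and entered the test through stimulated groups alone.

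Likeness to each ligand was measured as the root mean square difference in change from the saline mean, on the log2(TPM + 1) scale, over the 6 stimulated libraries and 11096 genes. Cxcl9 was nearest to Xcl1 (0.44), followed by Fabp3 (0.59), Rnf19b (0.61), Ms4a6c (0.64) and Gch1 (0.65). Nearest to Cxcl10 were Ifit1 (1.64), Ccl7 (2.09), Cmpk2 (2.48), Gbp5 (2.53) and Rsad2 (2.53), all at larger distances because few genes rose as far. Ifit1, Cmpk2 and Rsad2 had their highest mean in IFNb, at 2680, 2850 and 6880 TPM. Ccl7 and Gbp5, like Cxcl10, had it in LPS+IFNb. Cxcl11 was nearest to Ripk2 (0.47), Tle3 (0.51), Cdkn1a (0.52), Hspa1b (0.55) and Il1rn (0.56). Cxcl9 and Cxcl11 differed from each other by 0.97, and Cxcl10 differed from Cxcl9 by 7.23 and from Cxcl11 by 6.83. These are descriptions over libraries that share their groups, and the nearest genes changed with the measure: of each 5, 1 was kept for each ligand by Pearson correlation over the 8 libraries.

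Genes around the cluster did not move as a block. Within 250 kb of it the annotation holds 21 other genes, of which 14 are in the files and 10 were tested. With LPS 4 rose and 2 fell (5 and 0 after scaling), and with IFNb 4 rose and 3 fell (4 and 0 after scaling). Among all genes tested 12.8% rose and 41.3% fell with LPS, and 13% rose and 38.6% fell with IFNb. The medians of the neighbours were 0.44 and -0.07, against -0.38 and -0.37 over all genes. U90926, typed as protein coding in the annotation, was listed at 0 in both Saline libraries, at 30.3 and 24.1 TPM in LPS, 0.181 and 0 in IFNb, and 25.6 and 27.2 in LPS+IFNb. It rose with LPS by 4.81 ± 0.16 (adjusted p = 4.02e-06), and LPS+IFNb differed from LPS by -0.03 ± 0.16 (adjusted p = 0.905). U90926 entered the test through the groups given LPS alone, so its rise over saline was favoured by the filter. G3bp2, a stress granule protein gene, was at 59.0 and 55.2 TPM in Saline, 41.2 and 41.3 in LPS, 167 and 172 in IFNb, and 109.5 and 110 in LPS+IFNb, highest with IFNb. It rose with IFNb by 1.55 ± 0.08 (adjusted p = 1.68e-05) and fell with LPS by 0.46 ± 0.08 (adjusted p = 0.00287; -0.00 after scaling, adjusted p = 0.982). Between them and the ligands lies Naaa, a lysosomal amidase gene, which rose by 1.19 ± 0.08 with IFNb (adjusted p = 0.0001) and did not pass with LPS (0.23 ± 0.08, adjusted p = 0.0595; 0.68 after scaling, adjusted p = 0.00436). On the other side Nup54, a nuclear pore gene, rose with LPS by 1.19 ± 0.12 (adjusted p = 0.00039) and fell with IFNb by 0.43 ± 0.12 (adjusted p = 0.0214; -0.05 after scaling, adjusted p = 0.841). No neighbour that was tested rose as far as Cxcl10 in either comparison with saline. This says little about the locus, since Cxcl10 had rank 1 of 13009 genes with LPS and rank 2 with IFNb.

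**Figure D5:**
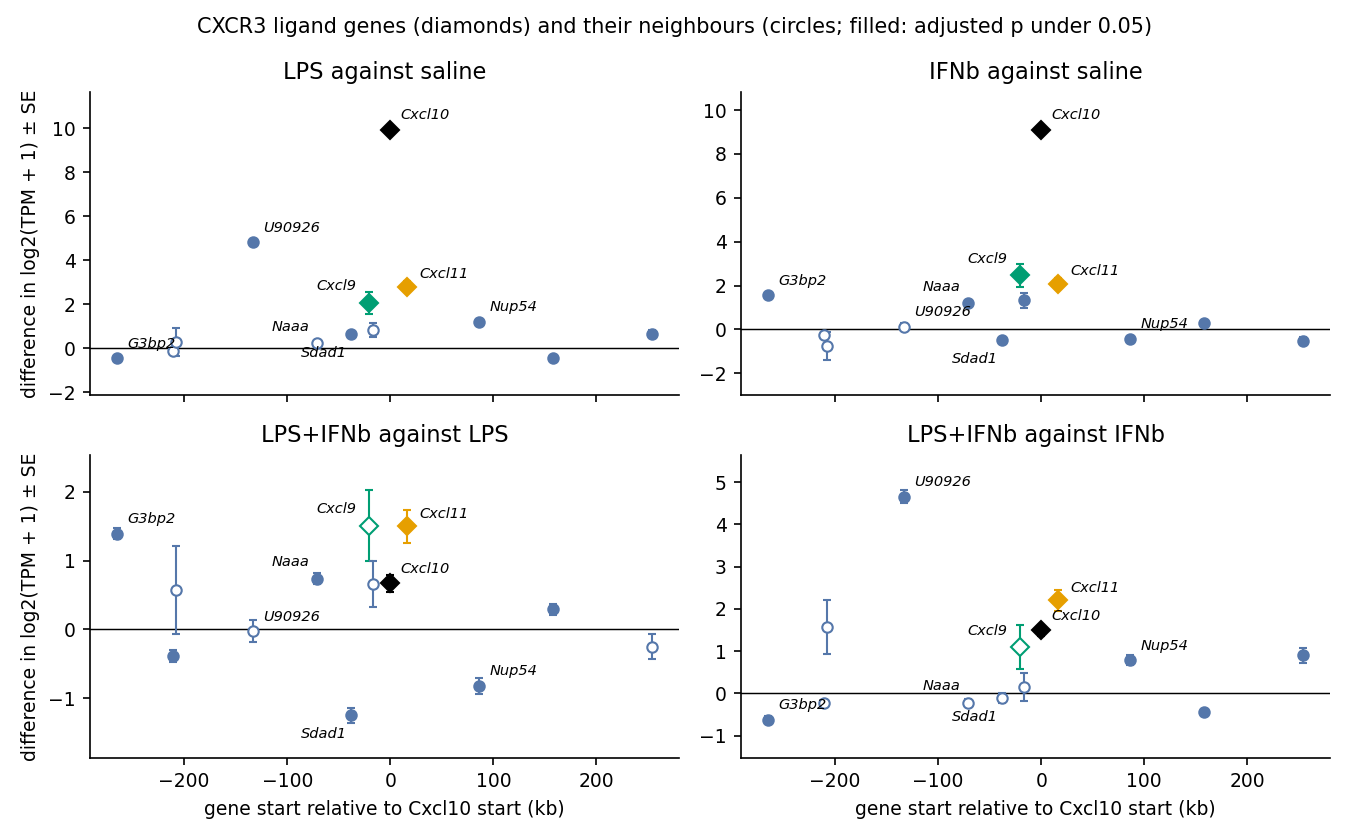
Differences in log2(TPM + 1) ± SE for the 3 ligand genes (diamonds) and the 10 tested neighbours (circles), by distance in kb of the gene start from that of Cxcl10, filled where the adjusted p was under 0.05. With LPS and with IFNb the ligands stand above genes on both sides, apart from U90926 with LPS, which at 4.81 exceeds Cxcl9 and Cxcl11.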

How the data were processed

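RNA from 8 libraries, 2 in each of 4 groups taken from the labels, was prepared with a TruSeq RNA kit, per the labels' protocols. The authors deposited TPM values for 88198 Ensembl transcripts a library. Per the submitters' processing notes kallisto and the mm10 build were used; the kallisto version, transcript set, strand setting and filters were not given in the sources used here. TPM keeps no read number, so depth and counting error are unknown. GENCODE M21 matched 86119 transcripts; the other 2079 (1.01% to 1.95% of TPM) were left out. TPM was summed per gene. The design assumed limma on log TPM where files hold no counts. Genes with at least 1 TPM in 2 or more libraries (13009) were fitted as log2(TPM + 1), 1 mean per group over all 8 libraries, in limma 3.58.1 (R 4.3.3) with a variance trend, 4 residual and 2.54 prior degrees of freedom. Tests are two-sided, Benjamini-Hochberg adjusted over all genes of each of 7 comparisons, and were tested on simulated data. Groups of 2 are too small for an exact permutation test to reach the threshold.

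The members, gene lists and naming rule were chosen with earlier results of these data known. Named are the 3 ligands, up to 3 called genes per list and direction by adjusted p, a set of genes whatever their p (among them Cxcr3, Dpp4, Ifng, Ifnb1, Irf1, Irf8 and Socs1), and the 5 genes most like each ligand. Some items that the rule names are left out here. Genes outside this rule that were named after their values were seen are Lyz2, Cd68, Gata6, Timd4, Plac8, Vcan, Ly6c2, Ccr2, F13a1, Cd22, Cd74, Ciita, Ly6g, Ngp, Camp, Cd28, Cd3e, Gzma, Ackr1, Ackr2, Ackr3 and Ackr4. Alternatives were median-ratio and upper-quartile scaling, rescaled protein-coding genes, protein-coding transcripts, a pseudocount of 0.1, no filter, at least 5 TPM, fitting the compared groups alone, the replicate block and each library left out.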

Additional observations from a re-analysis of the deposited data

Results flagged for a closer look

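For Cxcl10 the difference between LPS+IFNb and IFNb was smaller than that between LPS and Saline, by a test of the difference itself. The interaction on the log2(TPM + 1) scale was -8.44 (limma, adjusted p = 4.58e-06). Addition of LPS and time since IFNb cannot be told apart in it. The interaction reflects a level of 1.95 and 2.31 TPM in Saline against 1848 and 1610.1 in IFNb, and in TPM the LPS+IFNb mean was 1.02 times LPS plus IFNb minus Saline. No group had the 4 libraries that a test for a stray library needs.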

How the results depend on the processing

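Only 2 libraries a group and an unknown depth limit what can be seen, above all for Cxcl9 and Cxcl11, which lay under 1 TPM in Saline. Of 356 ligand differences recomputed under alternatives, 341 kept direction and side of the threshold. Leaving out 1 library gave ranges of 1.46 to 2.63 for Cxcl9 in LPS against saline, 0.93 to 2.09 in LPS+IFNb against LPS, where the call was gained without LPS replicate 1, and -1.01 to 0.16 in LPS against IFNb, where the sign turned without replicate 2 of either group (0.16). For Cxcl11 in LPS against IFNb it gave 0.39 to 1.02. The Cxcl9 difference between LPS+IFNb and LPS passed at 1.76 with median-ratio scaling, at 1.52 with rescaled protein-coding genes, at 1.51 with protein-coding transcripts only and at 1.51 with the replicate numbers crossed. The Cxcl11 difference between LPS and IFNb passed at 0.76 with median-ratio scaling, 0.82 with upper-quartile scaling, 0.70 with a minimum of 5 TPM and 0.70 with protein-coding transcripts only. The Cxcl11 interaction passed at -2.40 with a pseudocount of 0.1. Median-ratio scaling raised the genes called higher to 2604 from 1664 in LPS against saline and to 3489 from 1980 in LPS+IFNb against saline, and moved mean levels to 0.415 TPM for Cxcl9 in Saline, 1.62 for Cxcl10 in Saline, 6110.0 for Cxcl10 in LPS+IFNb and 27.2 for Cxcl11 in LPS+IFNb. Without 1 library, genes called ran from 742 to 1230 higher in LPS+IFNb against IFNb (main 1140), 1425 to 2313 higher in LPS against IFNb (2158), both lowest without IFNb replicate 2, and 340 to 628 with a negative interaction (579). The last was 340 and 355 without IFNb replicates 1 and 2, 356 and 384 without LPS+IFNb replicates 1 and 2, and 358 without LPS replicate 1. Other genes changed sign at values that did not pass: Irf8 in LPS against saline at -0.02 with rescaled protein-coding genes and from -0.22 to 0.29 without 1 library (-0.08 without Saline replicate 1), Cxcl16 in IFNb against saline at 0.00 with median-ratio scaling, Dpp4 in IFNb against saline from -0.02 to 0.64 without 1 library and in LPS+IFNb against IFNb at 0.11 with median-ratio and 0.04 with upper-quartile scaling, Irf1 in LPS+IFNb against LPS from -0.00 to 0.22 without 1 library, and Cxcr3 in LPS+IFNb against IFNb from -0.28 to 0.13 without 1 library. Beyond the fewer libraries or genes each uses, the cause of these shifts was not tested.

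Same-numbered libraries deviated from their group means with correlations between -0.156 and 0.141. The correlation was 0.141 for Saline with LPS and 0.126 for IFNb with LPS+IFNb. It was -0.109 for Saline with IFNb and 0.005 for Saline with LPS+IFNb. For LPS it was -0.141 with IFNb and -0.156 with LPS+IFNb. Whether libraries of different groups belong to shared sets was not tested. With a replicate block Cxcl10 rose by 9.93 with LPS (adjusted p = 3.43e-06) and the genes called higher there were 1619 against 1664; no ligand call changed under the block. With the numbers crossed, an alternative chosen after seeing the data, genes called higher were 1505 for IFNb against saline, 1454 for LPS+IFNb against LPS and 2260 for LPS against IFNb. The Cxcl9 difference between LPS+IFNb and LPS then had an SE of 0.15, against 0.52 in the main fit (limma, adjusted p = 0.0153 against 0.0634). Cxcl11 has no value among rescaled protein-coding genes, because its gene is typed as a polymorphic pseudogene, and the interaction has none in a fit to only 2 groups.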
